A study of Mus musculus with 6 samples.

Results

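Described here are 10 genes of the vasopressin and cAMP route in the kidney: the vasopressin receptors Avpr1a and Avpr2, the adenylyl cyclases Adcy3, Adcy5, Adcy6 and Adcy9, the G protein subunit gene Gnas, the protein kinase A genes Prkaca and Prkar1a, and the transcription factor gene Creb1. They are named genes of a pathway, taken as the array's transcript clusters whose one gene symbol is among these names, with the highest-mean cluster kept for each symbol. Each of the 10 had 1 such cluster, all 10 lay above the filter on dim signal, and they are 10 of the 22087 genes tested. All kidneys were from females of the Pkd1 miR transgenic line, which models polycystic kidney disease, and both groups carry the transgene. From postnatal day 35 to day 63, 3 mice received saline and 3 received metformin into the peritoneum at 150 mg/kg/day, and kidneys were taken on day 63. The sources used here do not name the promoter of the transgene or the number of founder lines, and kidneys without the transgene were not analysed here, so the comparison is of metformin within the model. Whole-kidney RNA was hybridised to 6 single-colour arrays, 1 per mouse, and the labels call them biological replicates.

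Vasopressin acts on the kidney through the V2 receptor, encoded by Avpr2, which sits on principal cells of the collecting duct and on cells of the thick ascending limb. The receptor activates the stimulatory G protein and through it adenylyl cyclase, and the cAMP made there releases the catalytic subunit of protein kinase A, which phosphorylates the water channel aquaporin 2 and the transcription factor CREB. In polycystic kidneys cAMP drives cyst cells to divide and to secrete fluid, and antagonists of the V2 receptor slow cyst growth. The V1a receptor, encoded by Avpr1a, couples instead to phospholipase C and calcium and is found in the kidney on intercalated cells, vessels and other cells.

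The genes that cAMP switches on through CREB often carry the cAMP response element in their promoters, so the promoter windows of the 10 genes were searched for it. RefSeq sequences (build GRCm38.p6) matched 9 of the 10 symbols, with 19 windows of 300 bases, each running from 250 bases before a transcript start to 50 after it. Adcy6 is the unmatched gene. The motifs were the short element TGACG, which reads CGTCA on the other strand, and the full palindrome TGACGTCA, which contains both forms of the short one. At least 1 short element lay in the windows of 5 of the 9 genes (Avpr1a, Prkaca, Prkar1a, Gnas and Adcy9) against 23.0% of the 27025 genes in the RefSeq table. Gnas and Prkar1a have several windows, some of which overlap and hold the same element, so windows were not counted as separate cases. Prkaca and Adcy3 have 2 windows each. Of those, 1 Prkaca window holds short elements, while the other Prkaca window and the Adcy3 windows hold none. The 9 genes have more windows each than the genes of the table have on average, which gives them more places to match. The shares by gene are therefore not like for like. Per window the share over the whole table was 20.8% of 32851. The full element lay in 2 overlapping windows of Prkar1a, the one gene of the 9 that holds it, against 2.03% of all genes and 1.79% of all windows. Printed below are the 250 bases before the start for both receptors, for Prkaca, which differed between the groups, and for Prkar1a, which holds the full element. All 4 are on the plus strand and read 5′ to 3′, with the elements in capitals.
Avpr1a, chr10:122448249-122448498: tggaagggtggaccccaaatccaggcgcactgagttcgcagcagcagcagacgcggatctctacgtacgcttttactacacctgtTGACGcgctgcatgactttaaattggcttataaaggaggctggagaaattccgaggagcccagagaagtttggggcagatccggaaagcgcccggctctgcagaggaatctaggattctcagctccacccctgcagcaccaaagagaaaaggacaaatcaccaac
Avpr2, chrX:73891852-73892101: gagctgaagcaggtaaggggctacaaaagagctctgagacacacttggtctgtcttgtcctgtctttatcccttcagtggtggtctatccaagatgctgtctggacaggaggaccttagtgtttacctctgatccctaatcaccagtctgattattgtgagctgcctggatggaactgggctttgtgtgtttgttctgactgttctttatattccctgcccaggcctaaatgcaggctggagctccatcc
Prkaca, chr8:83972728-83972977: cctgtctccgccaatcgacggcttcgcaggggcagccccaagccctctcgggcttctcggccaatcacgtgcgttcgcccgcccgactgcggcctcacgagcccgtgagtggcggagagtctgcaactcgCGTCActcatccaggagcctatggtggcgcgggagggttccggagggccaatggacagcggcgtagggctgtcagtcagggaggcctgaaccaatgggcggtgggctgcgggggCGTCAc
Prkar1a, chr11:109650699-109650948: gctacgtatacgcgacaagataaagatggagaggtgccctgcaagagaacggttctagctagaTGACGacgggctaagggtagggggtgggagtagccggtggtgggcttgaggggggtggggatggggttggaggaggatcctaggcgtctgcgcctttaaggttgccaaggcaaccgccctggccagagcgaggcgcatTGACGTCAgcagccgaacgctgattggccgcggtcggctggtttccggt
Counted from the transcript start, the printed Avpr1a window has 1 short element, at position -165. The printed Prkaca window has 2, at positions -120 and -6. The printed Prkar1a window has a short element at position -187 and the full one at position -49. In the Avpr2 window neither motif was matched. A match is a description of the letters, and binding was not measured.

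In whole kidney both vasopressin receptors were lower with metformin, Prkaca was lower, and Adcy6 was higher. Avpr1a was 2.32-fold lower, Avpr2 1.56-fold lower, Prkaca 1.48-fold lower and Adcy6 1.6-fold higher, on the scale of the deposited values. These 4 of the 10 genes passed limma's test at an adjusted p under 0.05 (1 higher, 3 lower), beside 15.8% of all genes tested, of which 6.71% were higher and 9.08% lower. The median change of the 10 genes was -0.04 log2 units and that of all genes 0.02. Gnas, Prkar1a, Creb1, Adcy3, Adcy5 and Adcy9 did not pass. The groups were fully separate in 5 of the 10 genes, 1 higher and 4 lower, against 37.3% of all genes (17.8% higher and 19.4% lower). In bulk tissue, fewer cells of a type and less RNA per cell cannot be told apart, and every value below is that of the whole kidney.

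**Figure D1:**
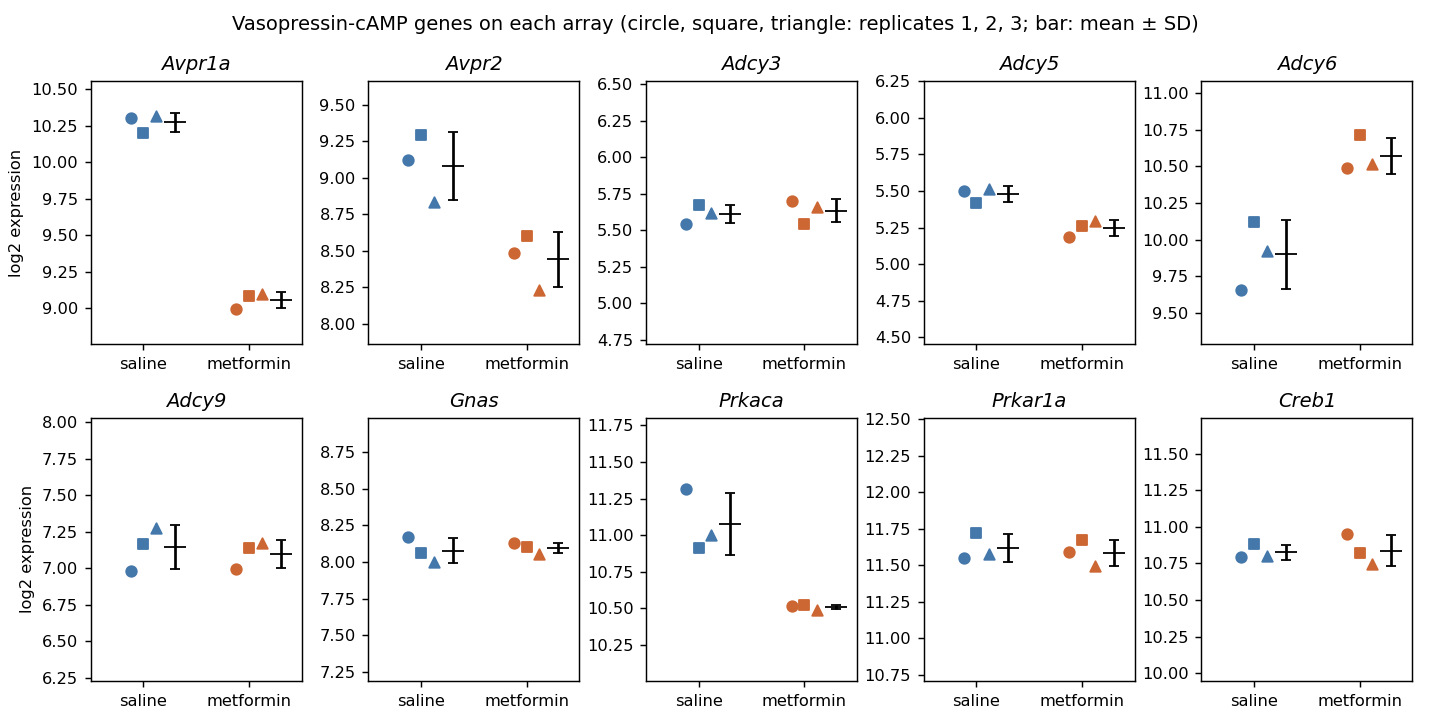
Log2 expression of the 10 genes on each of the 6 arrays, in panels that each span 1.8 log2 units. Points are arrays (circle, square and triangle for replicates 1, 2 and 3) and bars are the mean ± SD of 3. Metformin arrays lie wholly below the saline arrays for Avpr1a, Avpr2, Adcy5 and Prkaca, wholly above them for Adcy6, and overlap them for the other 5 genes.

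Array medians lay between 4.67 and 4.86 log2 units. The scale differed by group: upper quartiles were 7.01 to 7.12 on the saline arrays and 7.21 to 7.34 on the metformin arrays, with no overlap. Kidney identity was plain from the tubule markers, with the thick ascending limb protein Umod at 18.7 to 19.1 and the proximal phosphate transporter Slc34a1 at 18.2 to 18.7, close to the highest value on any array of 19.9. Adipocyte markers varied most: the mean of 8 measured markers was 6.93, 7.64 and 5.72 in saline replicates 1, 2 and 3, and 5.38, 5.44 and 5.44 in the metformin replicates. Equal array medians moved the median change of all genes to -0.07 and quantile normalization to -0.10. The share of calls that were higher was then 25.2% and 20.7% in place of 42.5%, and the 4 calls and their directions held under both. The median of the 10 genes was then -0.13 and -0.21, with 9 of 10 below 0 in place of 6.

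The V1a receptor gene Avpr1a showed the clearest separation. With saline it stood at 10.30, 10.20 and 10.32, and with metformin at 9.0, 9.09 and 9.10. The lowest saline array stood 1.10 log2 units above the highest metformin array, while the arrays spanned 0.12 within saline and 0.10 within metformin. The change was -1.21 ± 0.09 log2 units (SE; 95% interval -1.42 to -1.01; limma adjusted p = 0.00667). It passed with each array left out in turn, with changes of -1.25 to -1.18 and a highest adjusted p of 0.0293.

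Markers of most tubule segments and of endothelium lay lower with metformin. Those of vascular smooth muscle were split, with 3 of 6 above 0 and 3 below (1 called lower, median -0.06). Over all genes tested, 10401 of 22087 lay below 0, and 9.08% were called lower. Proximal tubule markers were below 0 in 12 of 12 (2 called, median -0.76) and distal convoluted tubule markers in 4 of 6 (1 called, -0.34). Endothelial markers were below 0 in 6 of 7 (1 called, -0.40). After quantile normalization 9 of the 12, 3 of the 6 and 2 of the 7 were called lower, and with equal array medians 3, 2 and 2. The erythroid markers measured, Alas2 and Slc4a1, were below 0 in 2 of 2 (both called, -0.69). Slc4a1 is also on the intercalated cell list, and no cluster was matched to the globin genes listed. Intercalated cells are known to carry the V1a receptor. Of 7 of their markers measured, 3 fell, none rose and 6 lay below 0, with a median of -0.44. The 3 were the proton pump subunit gene Atp6v0d2 (-0.94), the anion exchanger Slc4a1 (-0.86), which red cells also carry, and pendrin, Slc26a4 (-0.57). The limma adjusted p of Slc26a4 was 0.0473, and 0.0665 with the labels' replicate number as a block, where its call ended. The mean level of the 7 markers ran from 11.42 to 11.88 on the saline arrays and from 11.04 to 11.32 on the metformin arrays. Foxi1, the transcription factor that defines these cells, was at 10.9 to 11.5 in saline and 11.3 to 11.4 in metformin. The part of any of these cell types in the change of Avpr1a was not tested.

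The V2 receptor gene Avpr2 stood at 9.12, 9.29 and 8.83 on the saline arrays and at 8.49, 8.60 and 8.23 on the metformin arrays. The groups did not overlap, with a gap of 0.23 between them, smaller than the span within saline (0.46) or metformin (0.37). In both groups replicate 2 was the highest and replicate 3 the lowest. Avpr2 changed by -0.64 ± 0.15 (SE; 95% interval -0.99 to -0.29; limma adjusted p = 0.0311). The call ended without any one of saline replicates 1 and 2 and metformin replicates 1, 2 and 3, at adjusted p of 0.106, 0.0543, 0.0813, 0.0582 and 0.0793, while the change stayed between -0.76 and -0.54.

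Principal cells, the main site of the V2 receptor, were read from 10 measured markers, of which Aqp3, Aqp4 and Kcne1 fell and none rose (median -0.45). While 7 lay below 0, 3 lay above (Scnn1b, Scnn1g and Tfcp2l1). Only Aqp3 (-0.73) and Aqp4 (-1.23) fell by more than Avpr2. In saline replicates 1, 2 and 3 the mean level of the 10 markers was 12.02, 12.16 and 11.66, and in the metformin replicates it was 11.66, 11.64 and 11.46. The groups overlapped at saline replicate 3 and metformin replicate 1. Avpr2 was then set against that mean within each array. The difference moved by -0.28 from saline to metformin (SD 0.04 and 0.10, n = 3 each), and the groups did not overlap (two-sided exact permutation p = 0.1, the smallest that 3 against 3 allows). Of the 10 markers, 5 are themselves genes that vasopressin controls (Aqp2, Aqp3, Aqp4, Scnn1b and Scnn1g). Against the mean of the other 5 the difference moved by -0.32 (exact permutation p = 0.1), a setting added after seeing the data. Thick ascending limb markers, from the other segment with this receptor, fell in 2 of 8 (Kcnj1 and Cldn10), all 8 lay below 0, and the median was -0.33. With the replicate block the call of Cldn10 ended (limma adjusted p = 0.0542). The part of principal cells or of thick ascending limb cells in the change of Avpr2 was not tested.

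**Figure D2:**
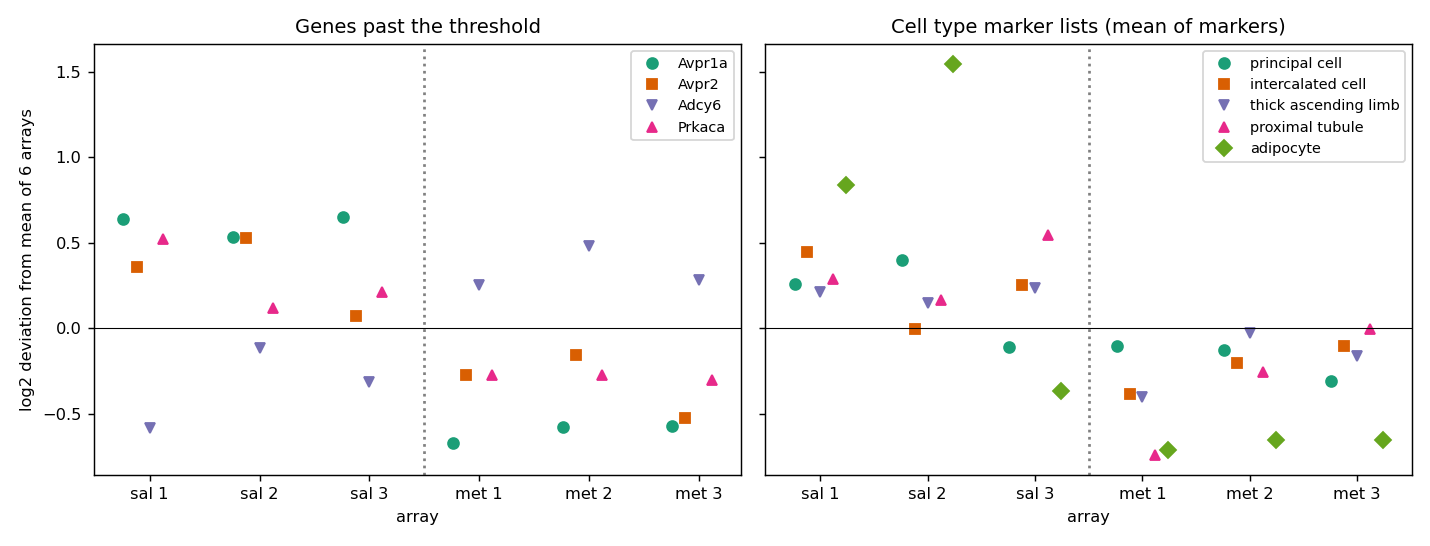
Deviation of each array from the mean over the 6 arrays, in log2 units, for the 4 genes past the threshold (left) and for the mean of 5 lists of cell type markers (right). Points are single arrays, 3 saline (sal) and 3 metformin (met). Avpr1a is nearly flat within each group, whereas the adipocyte markers range from 5.72 to 7.64 within saline.

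Gnas encodes the stimulatory G protein subunit that links the V2 receptor to adenylyl cyclase. Its values were 8.17, 8.06 and 8.003 with saline and 8.13, 8.10 and 8.06 with metformin, a change of 0.02 with a 95% interval of -0.19 to 0.23 (limma adjusted p = 0.918). The groups overlapped fully. The locus also makes imprinted transcripts from other starts, with 4 windows in the RefSeq table, and the sources used here do not say which of them the cluster reads.

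Of the 4 adenylyl cyclases described, only Adcy6 passed the test. Adcy6, an isoform inhibited by calcium that makes much of the vasopressin-dependent cAMP in the collecting duct, was at 9.65, 10.12 and 9.92 on the saline arrays and at 10.49, 10.72 and 10.52 on the metformin arrays. All 3 metformin values lay above all saline values, with a gap of 0.37. The change was 0.67 ± 0.14 (SE; 95% interval 0.35 to 1.0; limma adjusted p = 0.0217). It fell short of the threshold without saline replicate 1 (adjusted p = 0.0689) or without metformin replicate 1, 2 or 3 (0.0556, 0.0721 and 0.0506), with changes of 0.55 to 0.79 over the leave-one-out fits. Its change had the opposite sign to that of Avpr2.

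Adcy5, the close relative of Adcy6, had saline values of 5.50, 5.41 and 5.52 and metformin values of 5.19, 5.26 and 5.30. The groups did not overlap, but the gap was 0.12 and the change of -0.23 (95% interval -0.43 to -0.02) did not pass (limma adjusted p = 0.120). After quantile normalization the change was -0.37 and the adjusted p 0.0303, the one alternative setting that called it. Adcy3, known for its part in olfactory signalling and present in the macula densa, ran from 5.54 to 5.67 with saline and from 5.54 to 5.70 with metformin (change 0.02, 95% interval -0.19 to 0.24, limma adjusted p = 0.890). Adcy9, a widely expressed cyclase that responds little to forskolin, ran from 6.98 to 7.28 and from 6.99 to 7.17 (change -0.04, 95% interval -0.30 to 0.22, limma adjusted p = 0.833). For Adcy3 and Adcy9 the groups overlapped, and changes within those intervals could not be told from 0 with 3 arrays per group.

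Prkaca, the main catalytic subunit of protein kinase A, was at 11.31, 10.91 and 11.004 with saline and at 10.52, 10.52 and 10.49 with metformin. The metformin arrays spanned 0.03 log2 units and the saline arrays 0.40, with saline replicate 1 the highest, and the gap between groups was 0.39. The change was -0.57 ± 0.12 (SE; 95% interval -0.85 to -0.29; limma adjusted p = 0.0238). The call ended without saline replicate 1 (-0.45, adjusted p = 0.0640) and without metformin replicate 1, 2 or 3 (adjusted p = 0.0701, 0.0698 and 0.0629). Prkar1a, the regulatory subunit that holds the catalytic subunit inactive until cAMP binds, had values of 11.55, 11.72 and 11.58 against 11.59, 11.67 and 11.49 (change -0.03, 95% interval -0.26 to 0.20, limma adjusted p = 0.856). The Prkaca window printed above carries short elements, and the other of its 2 windows carries none. The Prkar1a window printed above carries the full element. Of Prkaca and Prkar1a, Prkaca is the one that passed the test.

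Creb1 encodes the transcription factor CREB, which protein kinase A activates by phosphorylation, a step that RNA does not show. It was at 10.80, 10.88 and 10.80 with saline and at 10.95, 10.82 and 10.74 with metformin. The change was 0.01, with a 95% interval of -0.21 to 0.23 (limma adjusted p = 0.954), and the groups overlapped.

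**Figure D3:**
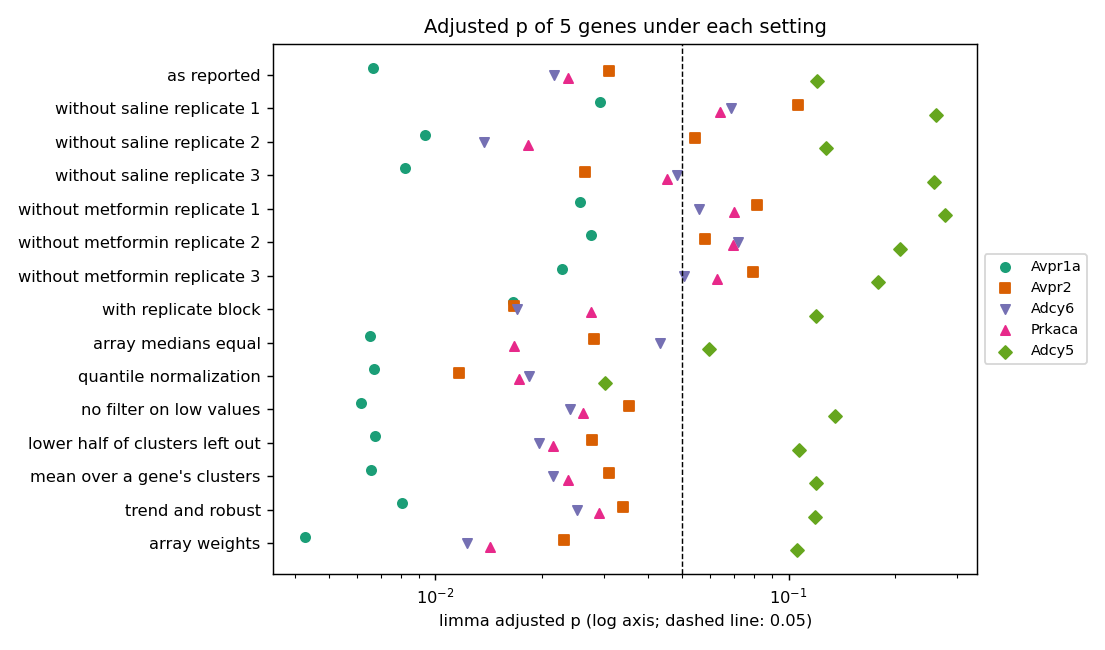
Limma adjusted p, on a log axis, of the 4 genes that passed and of Adcy5 as reported and under 14 other settings, 1 row per setting. The dashed line is the threshold of 0.05. Avpr1a stays left of the line in every row shown, and Avpr2, Adcy6 and Prkaca lie right of it in most rows that leave out 1 array.

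Around these genes, 96 others of the same signalling route were listed in 11 groups, and 78 were tested. Of the 78, 6 rose and 4 fell, with a median of -0.02, beside 15.8% of all genes called (6.71% higher and 9.08% lower). Of the 78, 38 lay above 0 and 40 below, beside 11686 and 10401 of all 22087 genes. Of the listed genes not tested, 12 were not analysed here, as no cluster was matched to their single symbol. The other 6 lay under the filter, among them the V1b receptor Avpr1b and the cyclases Adcy8 and Adcy10.

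Upstream of the cyclases, the hormone genes Avp (4.01 to 4.04 with saline and 3.998 to 4.13 with metformin) and Oxt (change -0.18, limma adjusted p = 0.354) did not pass. None of the other 4 cyclases tested passed, and Adcy2 differed by -0.05 (adjusted p = 0.750). Avp and Adcy2 (means of 4.16 with saline and 4.11 with metformin) lay close to the filter limit of 4.03 and below every array median. Their values therefore say little about a change. Adcy7, a cyclase best known from blood cells, was at 6.21, 6.90 and 6.18 with saline and at 7.13, 7.09 and 7.03 with metformin. The difference of 0.66 gave a limma adjusted p of 0.0567. It was 0.0465 with the labels' replicate number as a block, and without saline replicate 2 the difference was 0.89 (adjusted p = 0.00936). Adcy7 was called under 4 other settings in all and missed under 10, with an adjusted p of 0.0269 to 0.111 where all 6 arrays were kept. With any other array left out the adjusted p was 0.107 to 0.180, with equal array medians 0.102 and after quantile normalization 0.111. Macrophage markers moved the same way, with all 7 measured above 0, 1 called (Lyz2), a median of 0.48 and a mean level of 8.75, 9.59 and 8.22 in saline replicates 1, 2 and 3, against 9.71, 9.66 and 9.33 in the metformin replicates. Their part in the value of Adcy7 was not tested.

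Besides Gnas (0.02), 9 other G protein subunit genes were tested. All 9 had changes below 0 (median -0.26), as had 10401 of the 22087 genes tested. Of the 9, 1 fell, the gamma subunit gene Gng12 (-0.41 ± 0.10, SE). Its call ended without any one array except saline replicate 2 (highest adjusted p = 0.106). With equal array medians 3 of the 9 fell (Gnai3, Gnaz and Gng12), and with quantile normalization also 3 (Gna11, Gnaz and Gng12). Among 8 other receptors that act on adenylyl cyclase none passed. The parathyroid hormone receptor gene Pth1r differed by -0.63 (limma adjusted p = 0.0839, or 0.0356 in the blocked fit), and the prostaglandin receptor gene Ptger3 by -0.79 (adjusted p = 0.110). The calcium-sensing receptor gene Casr differed by -0.55 (adjusted p = 0.110, or 0.0208 in the blocked fit). Of 5 receptor kinases and arrestins, which switch off activated receptors, Grk3 rose by 0.49 ± 0.10 (SE), from 7.08 ± 0.12 to 7.57 ± 0.04 (SD, n = 3 per group; limma adjusted p = 0.0204). The calls of Grk3, Akap13 and Rapgef3 ended without any one array except saline replicate 2, with adjusted p of at most 0.0787, 0.0977 and 0.143.

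Downstream of cAMP, none of the other 7 protein kinase A genes passed. The regulatory subunit gene Prkar2b, abundant in fat, showed the widest spread, with 7.87, 8.62 and 6.48 in saline replicates 1, 2 and 3, against 6.15, 6.23 and 6.09 in the metformin replicates. That order over the saline arrays is the one of the adipocyte marker level given above. The principal cell, macrophage and vascular smooth muscle marker levels had it too. The change was -1.50 (adjusted p = 0.0675), -2.09 without saline replicate 3 (adjusted p = 0.0110), and it was called with the replicate block (adjusted p = 0.0449). The part of fat in this value was not tested. Pkia, an inhibitor of the kinase, had a change of -0.32 (adjusted p = 0.134), which was -0.41 with equal array medians (adjusted p = 0.0464). After quantile normalization Prkar2b (adjusted p = 0.0392) and the catalytic subunit gene Prkacb (-0.37, adjusted p = 0.0460) were called lower. Akap13, which encodes an anchoring protein of the kinase, rose by 0.47 ± 0.11 (SE), 1 of 9 anchoring proteins, and with equal array medians none was called. In the blocked fit Akap12 was called too (0.46, adjusted p = 0.0266, against 0.216 without the block). Rapgef3, which encodes the cAMP sensor Epac1, rose by 0.41 ± 0.11 (SE; limma adjusted p = 0.0475), 1 of 3 genes of the Epac branch. Its call ended under 4 of the settings that kept all 6 arrays.

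Among CREB partners and coactivators 3 of 7 rose, beside 6.71% of all genes. Of the 7, 6 lay above 0 (5 after quantile normalization), beside 11686 of all 22087 genes, and the median was 0.29. The 3 were Crtc2, a CREB coactivator held in the cytoplasm when AMPK-related kinases phosphorylate it, and the acetyltransferases Crebbp and Ep300. Crtc2 was at 7.93, 8.002 and 7.82 with saline and at 8.41, 8.41 and 8.43 with metformin, a change of 0.50 ± 0.09 (SE; limma adjusted p = 0.0152). Crebbp changed by 0.57 ± 0.13 and Ep300 by 0.56 ± 0.13 (SE; limma adjusted p = 0.0324 and 0.0292). The Crtc2 call ended without saline replicate 1 or metformin replicate 2, and those of Crebbp and Ep300 without any one array except saline replicate 2. With equal array medians the Crebbp change was 0.48 and the adjusted p 0.0530.

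None of 13 CREB target genes passed, with 7 above 0 and 6 below (median 0.11). The median was 0.02 with equal array medians and -0.08 after quantile normalization. The clock gene Per1 had 8.35, 8.44 and 8.97 with saline and 8.92, 9.71 and 9.37 with metformin, which overlapped. The difference was 0.75 (limma adjusted p = 0.0701, or 0.0450 in the blocked fit, and 0.0453 without saline replicate 3). Per1 was called under 3 other settings in all and missed under 11, with an adjusted p of 0.0342 to 0.116 where all 6 arrays were kept. Pck1, the gluconeogenic enzyme gene, differed by -0.56 (adjusted p = 0.164), and was called lower in the blocked fit (0.0270) and after quantile normalization (-0.80, adjusted p = 0.0330). The salt-inducible kinase gene Sik1 differed by 0.26 (adjusted p = 0.142) and its groups did not overlap.

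Of 11 genes tested that vasopressin controls in the kidney, 3 fell and none rose, beside 9.08% of all genes called lower and 6.71% higher. The list as a whole was split, with 5 above 0 and 6 below (median -0.06). After quantile normalization the chloride channel gene Cftr also fell (-0.50, limma adjusted p = 0.0283, against 0.219 as deposited). The urea transporter gene Slc14a2 changed by -1.64 ± 0.38, the basolateral water channel genes Aqp4 by -1.23 ± 0.10 and Aqp3 by -0.73 ± 0.15 (SE; limma adjusted p = 0.0303, 0.00667 and 0.0212). Aqp4 values were 8.26, 8.14 and 8.20 with saline and 6.95, 6.84 and 7.11 with metformin, and its call held with each array left out. Those of Slc14a2 and Aqp3 ended when saline replicate 1 or metformin replicate 1 or 3 was left out (adjusted p of at most 0.0916 and 0.0821). Aqp2, the apical water channel that protein kinase A phosphorylates, was at 14.91, 15.96 and 14.58 with saline and at 14.54, 15.05 and 14.12 with metformin, so the groups overlapped. It was singled out after its values were seen. The difference of -0.58 gave a limma adjusted p of 0.331 and, in the blocked fit, 0.0369. In each group replicate 2 was the highest and replicate 3 the lowest, as for Avpr2.

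**Figure D4:**
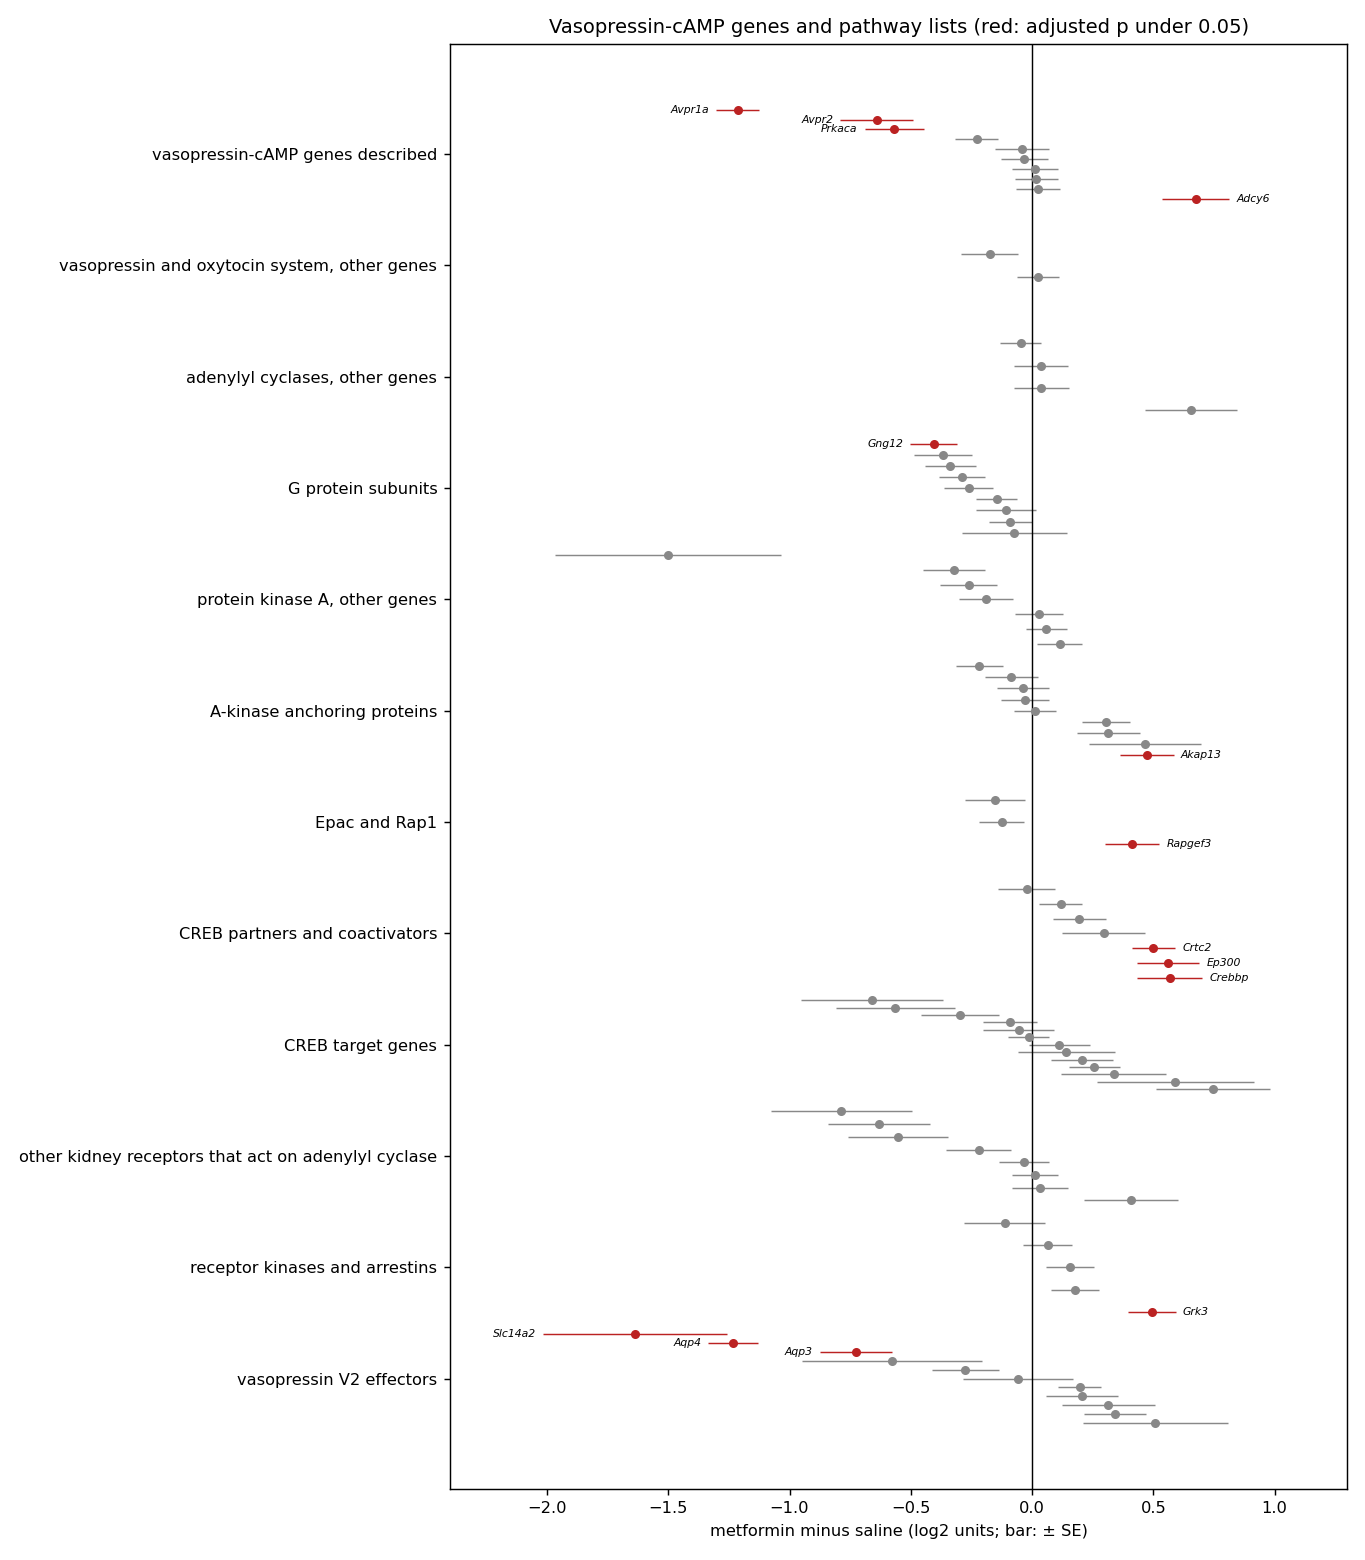
Change per gene, metformin minus saline in log2 units with bars of ± SE, for the 10 genes described and the 11 groups of other pathway genes, 1 point per gene. Red points passed limma's test at an adjusted p under 0.05 and carry their names. The receptors and the water and urea channels lie at the left, and Adcy6, Crtc2, Crebbp, Ep300, Rapgef3, Grk3 and Akap13 at the right.

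The genes with the most similar profiles over the 6 arrays were looked up among 14596 other protein-coding genes. These correlations describe 6 arrays that share one group difference. Closest to Avpr1a was Seh1l (r = 0.999), to Avpr2 the gene Vps39 (r = 0.997), to Adcy6 the anchoring protein gene Akap8 (r = 0.998) and to Prkaca the gene Tbc1d10a (r = 0.998). For Adcy5 the closest were Ptgr2 and the glycerol channel gene Aqp7 (r of 1.0 and 0.999), both with larger changes, -1.11 and -1.14 log2 units.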

How the data were processed

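The authors deposited 1 log2 value for each transcript cluster on each array, and the submitters' processing notes name RMA and Transcriptome Analysis Console 4.0. The sources used here do not name the RMA variant, the genome build or the settings. Values reach 19.9, above the 16 bits of a scanner, so folds are those of the deposited scale. Clusters with a mean up to 4.03 were left out, which kept 43971 of 65956, and those with 1 platform symbol, updated through RefSeq (GRCm38.p6), gave 22087 genes, each read from its highest-mean cluster. Groups were compared in R 4.3.3 using limma 3.58.1 (linear model with eBayes, two-sided, Benjamini-Hochberg over all genes tested, threshold 0.05). The code was tested on simulated data. With 3 arrays per group their number limits the precision. The genes and lists were chosen with earlier results of these data known. Named are the 10 genes, the nearest profiles, the genes called in each pathway list or else the 2 with the smallest p, and markers that describe a list. Genes called only under another scaling or in the blocked fit, and Aqp2, were named after their values were seen. Deviations of same-numbered arrays from their group means correlated at 0.12, 0.15 and 0.54, which was taken as a pairing, although saline 2 with metformin 1 reached 0.30. The labels do not say what a number marks. Alternatives were the replicate block, leaving out each array, other scalings and filters, the mean over clusters, trend and robust options, and array weights.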

Additional observations from a re-analysis of the deposited data

How the results depend on the processing

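Of the 10 genes, 4 were called as reported, 1 to 4 in the leave-one-out fits (1 without saline replicate 1 or any 1 metformin replicate), 5 after quantile normalization, and 4 under the other settings, the replicate block among them. All genes called numbered 3488 as reported and 842 to 3961 in the leave-one-out fits. With the replicate block they numbered 4370 and the block changed no call of the 10 genes. Avpr2 relative to principal cell markers ran from -0.33 to -0.24 without single arrays. The signs of 5 uncalled genes of the 10, and of Avp, depended on the setting. Leave-one-out changes ran from -0.0089 to 0.0680 for Adcy3, -0.12 to 0.0255 for Adcy9, -0.0196 to 0.0642 for Gnas, -0.0753 to 0.0204 for Prkar1a, -0.0455 to 0.0577 for Creb1 and -0.0176 to 0.0466 for Avp. With equal array medians Adcy3 was at -0.0665, Gnas at -0.0727, Creb1 at -0.0797 and Avp at -0.0674. With quantile normalization they were at -0.13, -0.16, -0.0211 and -0.0350. With array weights Adcy9 was at 0.0093, Gnas at -0.0067 and Creb1 at -0.00068. The cause of these shifts was not tested. Beyond single arrays, called pathway genes fell short as follows: Akap13 (0.38, adjusted p = 0.0639) and Crebbp with equal medians, Grk3 with quantile normalization (0.27, adjusted p = 0.0530), and Rapgef3 with equal medians, quantile normalization, no filter, or trend and robust options (adjusted p = 0.127, 0.161, 0.0537 and 0.0517).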
